A study of Rattus norvegicus with 2 samples.

Results

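The AP-1 and ATF stress factors are 10 genes of the Fos, Jun, ATF and small Maf families, taken by name: Fos, Fosb, Fosl1, Fosl2, Jun, Junb, Jund, Atf3, Atf4 and Maff. Of these, 9 had a row among the 16846 genes measured. The symbol in the table found 8 of them, and Fosb was found by its RefSeq accession, since the table lists it under LOC100360880 with Fosb as an alias. Fosl2 was not analysed here. The genes were chosen by family name, in view of ratios of anti-miR to control levels already computed from these same libraries. Their levels and ratios below are therefore descriptions and carry no test. In cultures given miR-99/100 and let-7 inhibitors, set against control cultures, Fosb and Atf3 had ratios of 0.541 and 0.582, Fos, Jun and Junb ratios of 0.763 to 0.817, and Jund and Atf4 ratios close to 1. Maff had a ratio of 1.59, and Fosl1 had 24 reads in the anti-miR and 0 in the control library.

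Strand-specific poly(A) RNA-seq measured their RNA in cultured ventricular cells of newborn rats (postnatal day 0), prepared as cardiomyocytes with a stated purity above 90%. The preparation included preplating for 2 h in both groups. The anti-miR cultures received AAV2/9, an adeno-associated virus, carrying short hairpin RNAs against miR-99/100 and let-7 (let-7a/c in the protocol) for 7 days. The sources used here do not name the promoter that drives the hairpins. The control cultures are labelled as given an empty AAV, while the treatment protocol speaks of mock transduction. The comparison asks how loss of these miRNAs alters gene expression. There was 1 library per group, so no spread between cultures can be estimated and no difference has a replicate check.

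AP-1 is a family of transcription factor dimers that bind DNA through a basic region and hold together through a leucine zipper, the bZIP fold. Fos proteins mostly pair with a Jun partner, whereas Jun proteins also pair among themselves and with ATF proteins. Most Fos and Jun genes are immediate early genes, transcribed within minutes of serum, growth factors, stretch or stress through MAP kinases and the factors SRF and CREB, and their RNA is short-lived. In heart cells they are known as early markers of mechanical and hormonal load.

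The hairpins were aimed at miRNAs that act through a seed, bases 2 to 8, shown here in capitals in RefSeq sequences of build GRCr8. The let-7 members share one seed and miR-100 carries another.
let-7a-5p: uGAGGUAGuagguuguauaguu
let-7c-5p: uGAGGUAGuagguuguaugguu
miR-100-5p: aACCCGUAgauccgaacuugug
Poly(A) libraries do not measure mature miRNAs, so the extent of the knockdown was not analysed here.

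Promoters are shown next, because known inputs to these genes act there. They cover members with ratios below 1 (Fosb and Junb) and above 1 (Atf4 and Maff), and Jund, whose ratio counting error did not separate from 1. Each window runs from 250 bases before to 50 after the annotated start, from RefSeq on GRCr8, read along the gene. RefSeq windows matched 6 of the 9 genes with a row, and the promoters of Fos, Jun and Atf3 were not analysed here. The 5 with an RNA level of at least 1 read per 1000000 (RPM) are printed, with motif matches in capitals.
Fosb, chr1:88089135-88089434, minus strand: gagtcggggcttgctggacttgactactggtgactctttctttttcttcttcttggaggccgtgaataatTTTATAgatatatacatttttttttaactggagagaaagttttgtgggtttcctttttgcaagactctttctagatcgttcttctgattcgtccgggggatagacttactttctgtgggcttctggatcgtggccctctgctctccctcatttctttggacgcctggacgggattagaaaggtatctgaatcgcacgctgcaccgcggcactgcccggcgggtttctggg
Junb, chr19:40080876-40081175, plus strand: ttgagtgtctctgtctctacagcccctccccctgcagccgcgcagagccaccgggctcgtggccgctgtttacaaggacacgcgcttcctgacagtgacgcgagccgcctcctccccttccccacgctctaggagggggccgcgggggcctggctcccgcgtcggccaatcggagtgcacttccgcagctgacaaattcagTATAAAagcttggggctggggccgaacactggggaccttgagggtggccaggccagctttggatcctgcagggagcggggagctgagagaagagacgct
Jund, chr16:18769722-18770021, minus strand: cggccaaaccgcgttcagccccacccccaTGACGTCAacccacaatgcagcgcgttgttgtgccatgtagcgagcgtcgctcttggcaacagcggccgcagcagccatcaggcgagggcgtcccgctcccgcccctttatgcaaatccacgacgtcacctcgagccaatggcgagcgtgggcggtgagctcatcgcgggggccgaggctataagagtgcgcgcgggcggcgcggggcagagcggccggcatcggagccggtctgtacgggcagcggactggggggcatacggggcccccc
Atf4, chr7:113684431-113684730, plus strand: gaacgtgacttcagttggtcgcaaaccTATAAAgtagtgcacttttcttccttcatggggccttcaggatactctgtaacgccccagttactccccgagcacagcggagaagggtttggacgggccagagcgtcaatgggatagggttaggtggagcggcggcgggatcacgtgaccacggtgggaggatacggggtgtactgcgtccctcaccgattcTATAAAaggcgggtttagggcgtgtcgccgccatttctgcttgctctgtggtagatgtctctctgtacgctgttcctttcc
Maff, chr7:112792537-112792836, plus strand: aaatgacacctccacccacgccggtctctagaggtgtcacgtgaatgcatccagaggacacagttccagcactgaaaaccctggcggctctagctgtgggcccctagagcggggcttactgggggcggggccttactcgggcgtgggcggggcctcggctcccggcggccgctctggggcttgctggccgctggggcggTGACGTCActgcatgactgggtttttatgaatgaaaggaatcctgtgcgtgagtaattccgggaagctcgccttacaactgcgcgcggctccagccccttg
Both strands were searched for the CArG box bound by SRF, the CRE bound by CREB and ATF proteins (TGACGTCA), the TRE bound by AP-1 (TGACTCA or TGAGTCA), the CARE bound by C/EBP and ATF4 dimers (TGATGNAA) and the TATA box (TATAAA). No match overlapped another motif.

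The full CRE letters stood in the windows of Jund, 221 bases before the start, and of Maff, 51 bases before it, and in 1.83% of all 33469 promoter windows. TATA box letters stood in 3 of the 6 windows. Junb had them 49 bases before the start and Atf4 had them 31 and 223 bases before it. In Fosb they lay on the opposite strand, 180 bases before the start. They occur in 14.2% of all windows. None of the 6 windows, of Fosb, Fosl1, Junb, Jund, Atf4 and Maff, held the letters of a CArG box, a TRE or a CARE, which occur in 1.64%, 4.63% and 3.98% of windows. A match is a run of letters and not a measured site, and regulatory elements of these genes outside the windows were not searched.

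The anti-miR library held 14815846 reads on genes and the control library 16031780. Levels are RPM, reads on the exons of a gene per 1000000 reads on all genes, and brackets give 95% exact intervals. These cover counting error alone, because there was 1 library per group. Without molecular identifiers several reads can come from 1 molecule, and the intervals make no allowance for that. Genes are called higher or lower when the log2 ratio of anti-miR to control, with 0.1 RPM added to each level, passes 1.5-fold, among the 10365 genes whose mean level reached 1 RPM. In this comparison 10.8% of all genes were higher and 8.56% lower, and the median log2 ratio was 0.03. Among the 1793 genes of at least 100 RPM, a level chosen after the values were seen, 0.167% were higher and 0.781% lower.

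Marker genes of the cultures give the setting of these levels. The 13 measured cardiomyocyte markers summed to 289 RPM in the anti-miR and 254 RPM in the control library. The 12 fibroblast markers summed to 129212 RPM in the anti-miR and 129089 RPM in the control library. Much of this was collagen RNA: Col1a1 had 50087.6 RPM in the anti-miR and 49137.8 in the control library, and Col3a1 26167.7 and 26225.5. The fibroblast marker highest in log2 ratio was Dcn at 0.56, and the lowest was Ddr2 at −0.19. Of the cardiomyocyte markers, 8 reached the floor. Among them, Myh7 was highest at a log2 ratio of 0.89 and Myl2 lowest at −2.17. Myh6, Myl3, Ryr2 and Tnni3 had 23, 19, 20 and 5 reads in the anti-miR library and 0 in the control library. The myosin-binding gene Mybpc3 had 14 reads in the anti-miR and 15 in the control library. These 5 are the measured cardiomyocyte markers whose mean lay below the floor, so their low level follows from how they were picked. The most abundant of the list were Tnnt2, of cardiac troponin T, with 161 RPM in the anti-miR and 147 in the control library, and Actc1, of cardiac actin, with 88.8 RPM in the anti-miR and 77.0 in the control library. The 14 macrophage markers summed to 8511 RPM in the anti-miR and 7968 in the control library, but 8 of the 13 at or above the floor had a ratio below 1, and their median log2 ratio was −0.15. The most abundant, the lysozyme gene Lyz2, had 3937 RPM in the anti-miR and 2937 RPM in the control library, a larger difference than that of the sums. Cd68 had 763 RPM in the anti-miR and 940.3 RPM in the control library, and C1qa, the lowest in ratio, had 355 RPM in the anti-miR and 528 RPM in the control library. The 7 markers of smooth muscle summed to 1238 RPM in the anti-miR and 1265 in the control library. Tagln and Cspg4 were the most abundant, at log2 ratios of 0.01 and −0.33. Cspg4 was also the lowest, and Des the highest at 0.22. The 9 markers of endothelium summed to 93.2 RPM in the anti-miR and 60.9 in the control library. Pecam1, the highest in ratio, had 50 reads in the anti-miR and 0 in the control library. Plvap, the lowest, had 0 reads in the anti-miR and 33 in the control library. Flt1 and Esam, the most abundant, stood at log2 ratios of 0.86 and 0.69. No fibroblast (of 12), macrophage (of 13) or smooth muscle marker (of 6) at or above the floor differed by 1.5-fold. In endothelium, 4 of 7 were higher and 2 lower, and in cardiomyocytes 2 of 8 were higher and 2 lower. Of all genes, 10.8% were higher and 8.56% lower. Cd163 and Emcn were at 0 in both libraries. The part of cell composition in the differences below was not tested, and in such bulk RNA fewer cells of a type cannot be told apart from less RNA per cell.

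Of the 8 AP-1 and ATF genes at or above the floor, Fosb and Atf3 were lower in the anti-miR library by the 1.5-fold rule and Maff was higher. By the same rule 8.56% of all genes were lower and 10.8% higher. Fos, Jun and Junb had ratios below 1 that did not pass 1.5-fold, and Jund and Atf4 lay near equal. The median log2 ratio of these 8 was −0.32, and that of the 9 with a row −0.29, wherever above the others Fosl1 is placed. Where the whole counting interval had to lie beyond 1.5-fold, Fosb and Atf3 were still lower and no member higher, against 3.42% and 4.93% of all genes. No member passed 2-fold at or above the floor, a size that 3.56% of all genes passed downward and 4.85% upward. Among genes of at least 10 RPM, 3.62% were 1.5-fold lower and 5.43% higher. An exact binomial test of the reads, Benjamini-Hochberg adjusted, compares these libraries and not the conditions. It called 5 members lower and 2 higher, beside 26.2% and 31.5% of all genes.

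**Figure D1:**
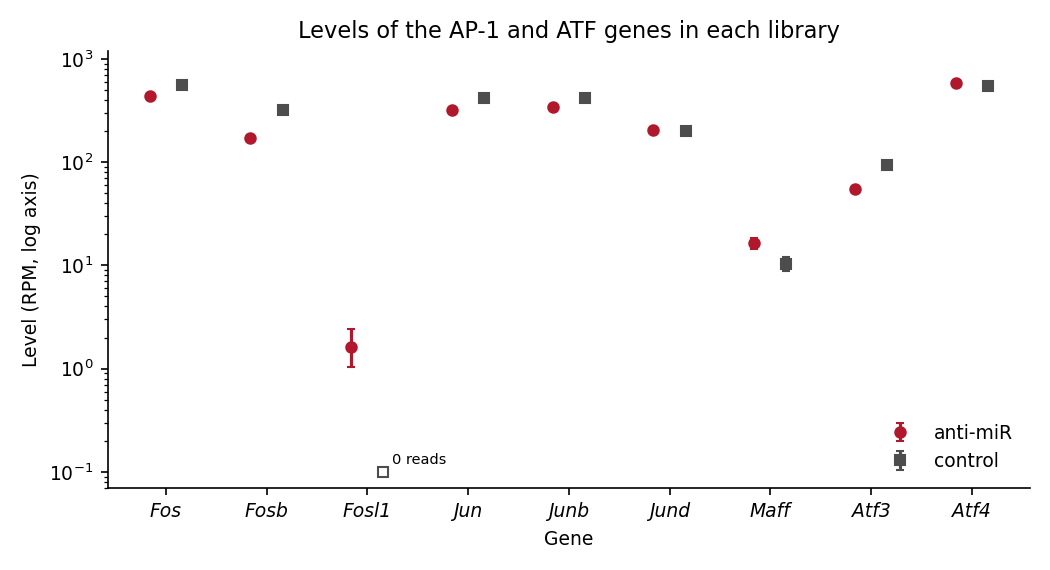
Level of each gene in RPM (log axis) in the anti-miR library (circles, left) and the control library (squares, right), with 95% counting intervals that are mostly smaller than the symbols, 1 library per group. Fosb and Atf3 sit lower in the anti-miR library, and Fosl1, with 0 reads in the control library, is drawn as an open square at the foot of the axis.

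Fosb (NM_001256509, rn4 chromosome 1, 78666631 to 78673491, minus strand), a Fos protein with a stable splice form called delta-FosB, had 172 RPM (166 to 179) in the anti-miR library, against 318 RPM (309 to 327) in the control library. These are 2552 reads in the anti-miR and 5100 in the control library. The ratio was 0.541 (0.516 to 0.568), a log2 ratio of −0.88. From the lowest, Fosb stood at place 469 of all 10365 genes at or above 1 RPM. No other gene of at least 100 RPM, of 1793, a level chosen after the values were seen, had a ratio as low. The next was Dusp1, the phosphatase that switches off MAP kinases, with 285 RPM in the anti-miR and 514 RPM in the control library. Its ratio was 0.555 (0.534 to 0.576), an interval that overlaps that of Fosb, so counting error leaves their order open. The table keeps 1 transcript per gene, so splice forms of Fosb cannot be separated.

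Fos (NM_022197, chromosome 6, 109559135 to 109562001, plus strand), the founding member and the partner that makes Jun dimers bind tightly, had 441 RPM (430.05 to 451) in the anti-miR library, against 562 RPM (550.03 to 573) in the control library. Its ratio was 0.785 (0.760 to 0.810) and its log2 ratio −0.35. From the lowest, this was place 66 of the 1793 genes of at least 100 RPM. Among all 10365 genes at or above 1 RPM, Fos stood at place 1676. Its difference was thus less deep than that of Fosb, and the counting intervals of their ratios did not overlap.

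Fosl1 (NM_012953, chromosome 1, 208090612 to 208099118, plus strand), encoding Fra-1, a Fos protein that follows the first wave, went the other way at a very low level. It had 24 reads, 1.62 RPM (1.04 to 2.41), in the anti-miR library and 0 reads in the control library. A limit of 3 reads (0.187 RPM) was set for that count of 0. The measured anti-miR level of Fosl1 was 8.66-fold above this limit. With counting error in both libraries, the exact 95% interval of the ratio began at 6.51. Its mean of 0.810 RPM lay below the floor. Single-library zeros were frequent there: of 730 genes with a mean of 0.5 to 1.5 RPM, 20% had 0 reads in the control library and 12.5% in the anti-miR library.

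Jun (NM_021835, chromosome 5, 115358167 to 115361259, minus strand), whose protein is activated by JNK kinases, had 318 RPM (309 to 327) in the anti-miR library, against 417 RPM (407 to 427) in the control library. The ratio was 0.763 (0.735 to 0.792), a log2 ratio of −0.39, at place 49 from the lowest of the 1793 genes of at least 100 RPM. Among all 10365 genes at or above 1 RPM, Jun stood at place 1510. Junb (NM_021836, chromosome 19, 24831536 to 24833320, plus strand), a Jun protein that often restrains Jun, had 341 RPM (331 to 350.2) in the anti-miR library, against 417 RPM (407 to 427) in the control library. Junb had a ratio of 0.817 (0.787 to 0.847), a log2 ratio of −0.29, and place 98 of the 1793. Its place among all 10365 was 1987. Fos, Jun and Junb thus lay close together, at ratios of 0.763 to 0.817, with counting intervals that overlap for each pair of the 3.

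Jund (NM_138875, chromosome 16, 19239694 to 19241529, minus strand) is the Jun gene that most cells transcribe at a steady level, without need of a stimulus. It had 203 RPM (196 to 211) in the anti-miR library, against 198 RPM (192 to 205) in the control library, with 1.02 (0.974 to 1.08) as the ratio and 0.03 on the log2 scale. The interval includes 1, so at this depth no difference could be detected. Of the 8 genes at or above the floor, Jund was the 1 whose interval included 1.

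**Figure D2:**
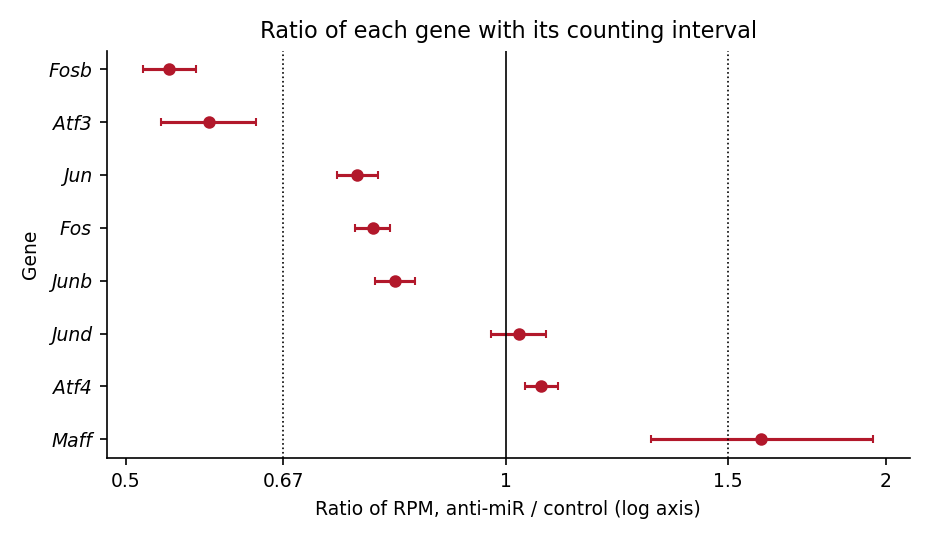
Ratio of RPM, anti-miR over control (log axis), for the 8 genes with reads in both libraries, with exact 95% counting intervals, the solid line at 1 and dotted lines at 1.5-fold either way. Fosb at 0.541 and Atf3 at 0.582 lie wholly beyond the lower line, Jun, Fos and Junb form a group at 0.763 to 0.817, and the interval of Jund includes 1.

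Atf3 (NM_012912, chromosome 13, 107191620 to 107223844, minus strand), a stress-induced factor that mostly represses as a homodimer and is itself a target of ATF4, had 54.7 RPM (51.0 to 58.6) in the anti-miR library, against 94.0 RPM (89.3 to 98.9) in the control library. Its reads numbered 810 in the anti-miR and 1507 in the control library. The ratio was 0.582 (0.533 to 0.634), a log2 ratio of −0.78 and place 578 from the lowest of all 10365 genes at or above 1 RPM.

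Atf4 (NM_024403, chromosome 7, 118537718 to 118538994, plus strand), the effector of the integrated stress response, is controlled mainly at translation, so its RNA need not follow its protein. It had 583 RPM (571 to 596) in the anti-miR library, against 547 RPM (536 to 558) in the control library, with 1.07 (1.04 to 1.10) as the ratio and 0.09 on the log2 scale. Atf3 and Atf4 thus lay on opposite sides of 1, with the larger distance on the side of Atf3.

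Maff (NM_001130573, chromosome 7, 117328924 to 117340276, plus strand) encodes a small Maf protein, which has a bZIP region but no activation domain and pairs with NRF and Fos proteins. It had 16.4 RPM (14.4 to 18.6) in the anti-miR library, against 10.3 RPM (8.78 to 12.0) in the control library, from 243 anti-miR and 165 control reads. The ratio was 1.59 (1.30 to 1.95), a log2 ratio of 0.67. The lower bound lies under 1.5. Of the members at or above the floor, Maff and Atf4 were those with an interval wholly above 1. No member overlapped another gene of the table.

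**Figure D3:**
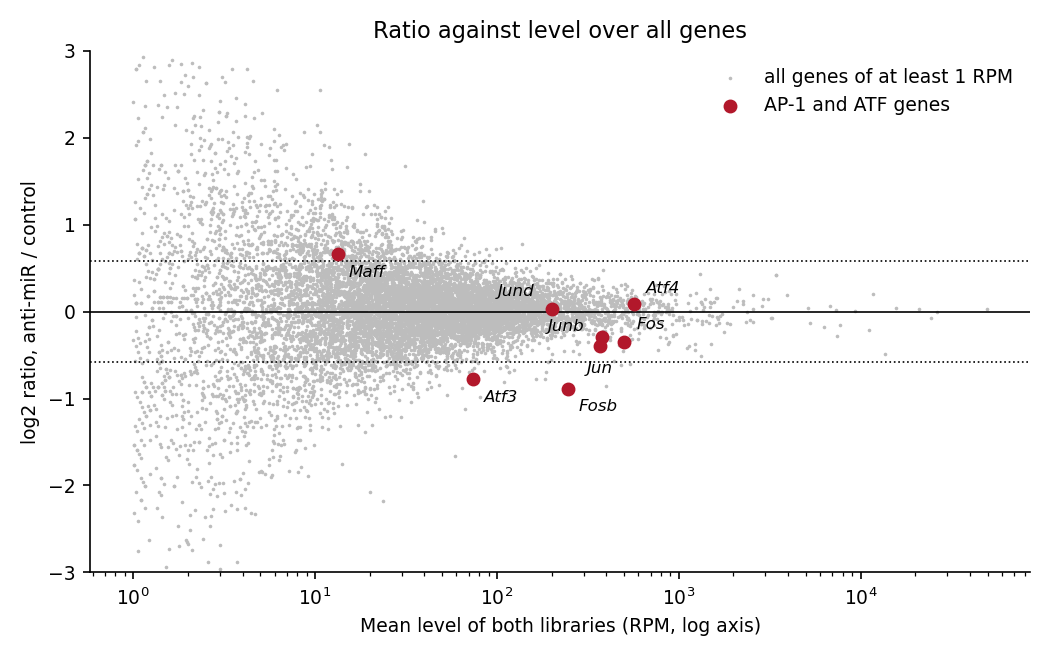
log2 ratio of anti-miR to control against mean level in RPM (log axis) for the 10365 genes of at least 1 RPM (grey) and the 8 AP-1 and ATF genes among them (red), with dotted lines at 1.5-fold; 110 grey genes lie beyond the vertical axis. The spread of all genes narrows as the level rises, and Maff sits among many genes of like level and ratio. Fosb lies below every other gene of at least 100 RPM, though its counting interval overlaps that of the next, Dusp1.

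Per length of transcript, the order of the members was nearly the same in both libraries. Atf4 led with 502 RPM per kb in the anti-miR and 470.3 in the control library. Fos followed with 278 in the anti-miR and 355 in the control library, and Junb with 191 in the anti-miR and 234 in the control library. Jund came next in the anti-miR library at 111 RPM per kb, ahead of Jun at 103. In the control library Jun, at 135, stood ahead of Jund, at 108. Below them, Fosb had 53.1 RPM per kb in the anti-miR and 98.0 in the control library, and Atf3 had 29.0 in the anti-miR and 49.9 in the control library. Maff stood at 8.47 in the anti-miR and 5.32 in the control library, and Fosl1 at 0.978 in the anti-miR library and 0 in the control library. The counting intervals of neighbours in these orders did not overlap, but the spread between cultures is unknown.

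Fos and Jun family transcripts together came to 737 RPM per kb in the anti-miR library, against 930.0 in the control library, a ratio of 0.793 over the 6 measured genes. The Fos family summed to 332 RPM per kb in the anti-miR and 453 in the control library, and the Jun family to 405 in the anti-miR and 477 in the control library. Fosb made up 7.20% of this pool in the anti-miR library, against 10.5% in the control library, and Jund 15.0% in the anti-miR library, against 11.6% in the control library. The share of Fos was 37.8% in the anti-miR and 38.1% in the control library, and that of Junb 25.9% in the anti-miR and 25.2% in the control library. Fosl2 is not in these sums.

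**Figure D4:**
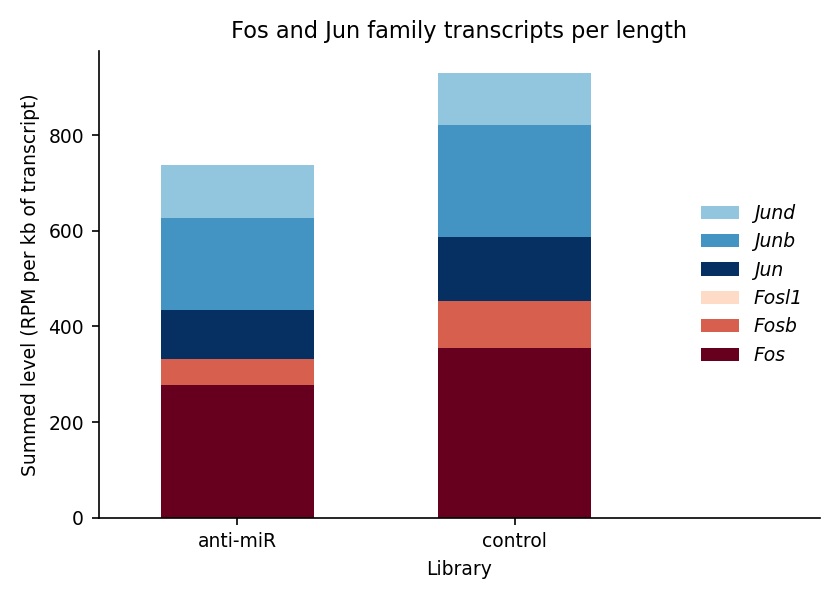
Summed level of the 6 measured Fos and Jun family genes in RPM per kb of transcript, in the anti-miR library (left bar) and the control library (right bar), split by gene. The anti-miR bar reaches 737 and the control bar 930.0, and the Fosb segment is 53.1 RPM per kb in the anti-miR and 98.0 in the control library, while that of Jund is 111 in the anti-miR and 108 in the control library.

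Kinases, SRF and its cofactors that act on AP-1 genes and proteins mostly did not pass 1.5-fold. Of 27 genes at or above the floor, 22 passed it in neither direction. The other genes were 4 upward and 1 downward, beside 10.8% and 8.56% of all genes. A ratio above 1 was found for 19 of the 27, against 5522 of all 10365 genes, and the median log2 ratio was 0.14. The 3 higher kinases Map2k4, Map3k1 and Rps6ka1 had log2 ratios of 0.71, 0.72 and 0.72. Map2k4 activates JNK and Map3k1 stands above it. Map2k6, a p38 activator, was highest with 6.14 RPM in the anti-miR and 2.50 RPM in the control library. Mapk13, a p38 kinase, was lowest with 12.2 RPM in the anti-miR and 21.8 RPM in the control library. The most abundant, Mapkapk2 and Map2k1, stood at −0.03 and 0.25 on the log2 scale.

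Other bZIP factors, possible partners of the members, lay close to equal levels as a group. The median log2 ratio of the 27 at or above the floor was 0.04. None of them passed 1.5-fold upward and 3 did downward, beside 10.8% and 8.56% of all genes. The 3 were Creb1, of the CREB family, Bach2, a partner of small Maf proteins, and Nfil3, a repressor. Creb1 had 1.08 RPM in the anti-miR and 4.30 RPM in the control library. Bach2, found by accession, had 0.742 RPM in the anti-miR and 2.00 RPM in the control library. Nfil3 had 24.4 RPM in the anti-miR and 44.6 RPM in the control library. Cebpa was highest at 0.37, and the most abundant, the NRF2 gene Nfe2l2 and the unfolded protein response factor gene Xbp1, stood at −0.11 and 0.09.

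Genes commonly cited as AP-1 targets went both ways. The median log2 ratio of the 27 at or above the floor was 0.03. Of these, 5 passed 1.5-fold downward and 2 upward, beside 8.56% and 10.8% of all genes. Those past it downward were Mmp9, Plaur, Hbegf, Il6 and Lif. The gelatinase gene Mmp9 had 0.607 RPM in the anti-miR library, against 10.3 RPM in the control library, a log2 ratio of −3.88. Plaur, the urokinase receptor, had 3.31 RPM in the anti-miR and 9.73 RPM in the control library. Hbegf, an EGF receptor ligand, had 7.76 RPM in the anti-miR and 19.5 RPM in the control library. The cytokine gene Il6 had 12 reads in the anti-miR and 25 in the control library, and its ratio of 0.519 had an interval that included 1 (0.238 to 1.07). Lif, of another cytokine, had a log2 ratio of −0.59. The growth factor gene Ereg was highest at 1.41 and the quinone reductase gene Nqo1 stood at 0.69. The most abundant, Col1a2 and Vim, stood at 0.02 and 0.19.

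Cited ATF4 targets were balanced around equal levels. Of 34 at or above the floor, 2 passed 1.5-fold upward and 2 downward, beside 10.8% and 8.56% of all genes. The other 30 passed it neither way, and the median log2 ratio was −0.01. Pycr1 and Gpt2, of proline and alanine metabolism, were lower at −0.79 and −0.75. Stc2 and Cth, of stanniocalcin 2 and cystathionine gamma-lyase, were higher at 1.35 and 0.93. The most abundant, the lipoprotein receptor gene Vldlr and the stress gene Nupr1, stood at 0.03 and −0.39. The eIF2 kinases, which act upstream of ATF4, and endoplasmic reticulum stress genes together had a median of −0.03 over 19 genes. None passed 1.5-fold downward and 1 did upward, beside 8.56% and 10.8% of all genes. That gene was Eif2ak2, the RNA-sensing kinase PKR, with 15.4 RPM in the anti-miR and 7.67 RPM in the control library. Ppp1r15a, the phosphatase subunit GADD34 that reverses the response, was lowest at −0.39. The chaperone genes Calr and Hspa5, the most abundant, stood at −0.03 and −0.05.

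Immediate early genes outside the AP-1 family had ratios mostly below 1, though most did not pass 1.5-fold. Of 39 at or above the floor, 28 had a ratio below 1, against 4843 of all 10365 genes. Among the 39, 10 passed 1.5-fold downward and 5 upward, beside 8.56% and 10.8% of all genes. The other 24 passed it neither way, and the median log2 ratio was −0.23. The lowest was Nr4a2, an orphan nuclear receptor, with 8.50 RPM in the anti-miR library, against 38.7 RPM in the control library. The others at least 1.5-fold lower were Nr4a1, Egr2, Btg2, Dusp1, Egr3, Sik1, Klf4, Rcan1 and Trib1, with log2 ratios of −1.12 to −0.59. Dusp2, a MAP kinase phosphatase, was highest at 0.99, with Socs3, Myc, Nr4a3 and Gadd45g also 1.5-fold higher, at 0.93 to 0.63. The matricellular genes Ctgf and Cyr61, the most abundant, stood at −0.14 and 0.09. With 1 library per group, a difference between the hairpins and the control cannot be told apart from a difference between any 2 cultures. The lists were written with earlier results known, and 9 genes, Ddit3 and Ppp1r15a among them, stand on more than 1.

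**Figure D5:**
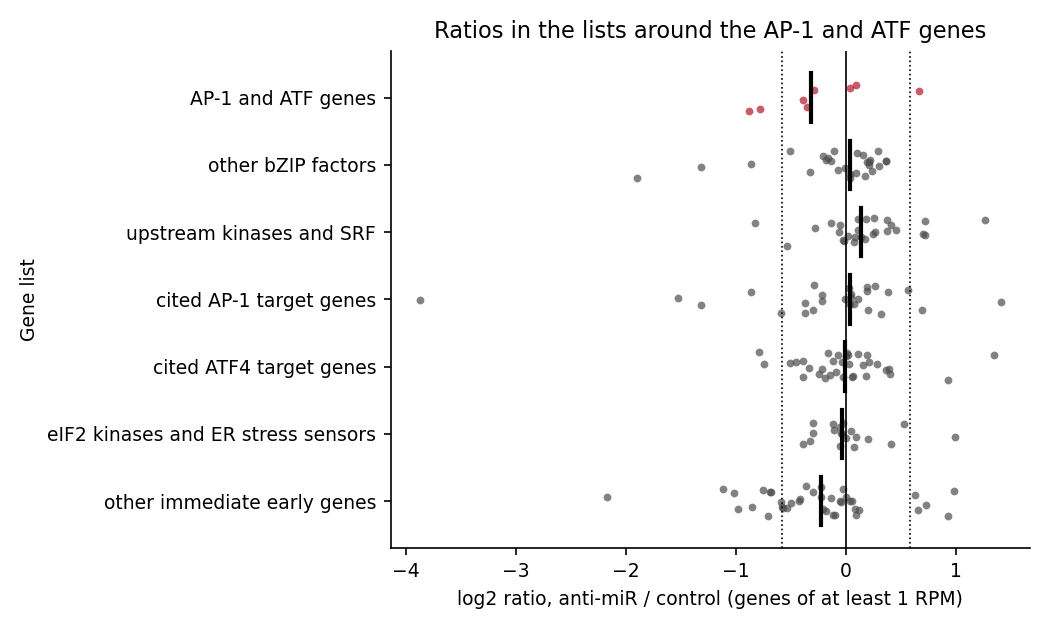
log2 ratio of anti-miR to control for the 8 AP-1 and ATF genes (red) and the genes of 6 related lists (grey), each dot a gene of at least 1 RPM, black bars the medians and dotted lines 1.5-fold. The medians are −0.32 for the AP-1 and ATF genes and −0.23 for other immediate early genes, while those of the other 5 lists lie between −0.03 and 0.14.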

How the data were processed

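Poly(A) RNA of 1 anti-miR and 1 control culture was sequenced. The deposited file holds a read signal for each gene. HOMER made the counts from exons of RefSeq transcripts (rat build rn4), on one strand, without adjusting totals and with 1 transcript kept for each gene, per the file headers. The submitters' processing notes list CASAVA 1.8.2, HOMER and STAR 2.2.0c but not what each did. The columns sum to 15423812 (anti-miR) and 15423813 (control), so a scaling step followed, not given in the sources used here.

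Whole reads were recovered, 1 read being worth 1.04 deposited units in the anti-miR and 0.962 in the control column. Of values up to 400 reads, 100% were whole within 0.005 units. RPM and RPM per kb (by the exon length in the table) were computed from these reads with NumPy 2.4.6 and pandas 2.3.3. Ratios carry exact Clopper-Pearson intervals and levels exact Poisson intervals (SciPy 1.17.1), which measure counting error only. The floor was a mean of 1 RPM, the pseudocount 0.1 RPM and the call 1.5-fold. The script was tested on simulated counts. Alternatives were another pseudocount, other scalings, other floors, a 2-fold rule and rules on the reads.

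Genes named are all members and, in each list, the highest, the lowest and the 2 most abundant at or above the floor. Others at least 1.5-fold apart, the cardiomyocyte markers below the floor, Cd163 and Emcn were named after their values were seen. Members and lists were chosen with earlier results of these data known. Table accessions matched RefSeq in 15849 of 16847 rows. Protein sequences were not used here.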

Additional observations from a re-analysis of the deposited data

How the results depend on the processing

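Over all 8 AP-1 and ATF genes with reads in both libraries, log2 ratios kept their sign with a pseudocount of 1 RPM, with scaling by the median ratio and with TMM scaling. Both scalings lowered log2 ratios by 0.02, and Jund came to 0.01. The median of the members ran from −0.35 (TMM) to −0.29 (no floor, or without Fosb). The count of members depended on the rule. With 2-fold, 0 were lower and 0 higher. A floor of 100 RPM, added after the data were seen, left 1 lower (Fosb) and 0 higher. Without Fosb, also added then, 1 was lower. With no floor 2 were higher, as Fosl1 entered through its anti-miR reads alone, beside 1891 of the 11630 genes with reads. Requiring the whole counting interval beyond 1.5-fold left Fosb and Atf3 lower and 0 higher. An exact binomial test of the reads, adjusted at 0.05, which compares these libraries and not the conditions, called 5 members lower and 2 higher, but also 26.2% and 31.5% of all 10365 genes. That rule called 2714 genes lower and 3261 higher, against 887 lower and 1124 higher by 1.5-fold. The counts over all genes were 369 lower and 503 higher with 2-fold, 287 and 431 with a floor of 10 RPM, 14 and 3 with 100 RPM, 355 and 511 with the interval rule, and 1275 and 1891 with no floor. The list medians kept their sign under the pseudocount, scaling and floor alternatives. With 150 bases before the start searched, the CRE letters remained in 1 window, that of Maff. No replicate could be left out, and no paired analysis was possible because each group has 1 library. Counting error was widest for the least abundant members, Fosl1 with 24 reads in the anti-miR and 0 in the control library and Maff with 243 in the anti-miR and 165 in the control library.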
